A study of Drosophila melanogaster with 12 samples.

Results

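Aminoacyl-tRNA synthetases attach each amino acid to its matching tRNA and so supply the ribosome with charged tRNAs. In animal cells most amino acids have separate enzymes for the cytosol and for the mitochondria, all encoded in the nucleus, while some enzymes serve both compartments from a single gene. The enzymes fall into 2 classes with unrelated catalytic folds, class I and class II, and several cytosolic ones are held together in a multi-synthetase complex by scaffold proteins. The genes described here were those whose FlyBase symbol is an amino acid code followed by RS, with -m for the mitochondrial enzymes, together with *GluProRS*, which charges both glutamate and proline. The rule found 33 genes, 18 cytosolic and 15 mitochondrial, and all 33 were among the 17737 genes of the pull-down table. The cytosolic phenylalanine enzyme is made of separately named subunits that the rule does not take, and these were counted among the partner genes.

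The series held 12 *Drosophila melanogaster* samples in 4 groups of 3. RIP-seq, in which RNA is sequenced after the immunoprecipitation of a protein, compared ovaries that carry a Bam-fTRG-GFP fosmid, which encodes Bam (Bag of marbles) fused to GFP, with ovaries that express UASp-GFP alone under Bam-Gal4. Bam is a differentiation factor of early germ cells, both lines carry GFP, and the GFP line measures RNA held by GFP or by the beads. RNA-seq was made from GFP-sorted ovary cells of *vas*-GFP flies with a homozygous *bam* deletion (bam_delta86/bam_delta86), which hold germ line stem cell-like cells, and of *vas*-GFP flies without it. Vasa-GFP marks germ cells, and both sorted genotypes carry it. Each pull-down was made from pooled ovaries, the Gal4 line drives GFP where *bam* is active, and the fosmid adds copies of *bam*. Without an input library, binding cannot be told apart from how abundant an mRNA was before the pull-down, nor can fewer cells of a type be told apart from less RNA per cell.

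The 6 pull-down libraries held between 7697440 and 12704088 counts on genes. CPM are each gene's counts scaled to a fixed library total with TMM factors, which assumes that most genes do not differ. *bam* had 51.5, 50.1 and 46.8 CPM with Bam-GFP and 16.7, 11.7 and 3.32 CPM with GFP alone. Of 8 germline markers, 7 were matched and had counts in every library, whereas all 5 testis markers were at 0 in every library. The 7 germline markers summed to between 5425 and 8821 CPM with Bam-GFP and to between 4003 and 6188 CPM with GFP alone. At a threshold of 0.05 on the adjusted p of edgeR's quasi-likelihood test, 1 of them was higher with Bam-GFP, *osk*, which encodes a determinant of germ plasm (log2 fold change 1.26, adjusted p = 0.00689). Of 10 follicle cell markers, 6 were higher and none lower with Bam-GFP at the same threshold. Over all genes tested, 1.72% were higher and 0.474% lower. The summed level of the 10 follicle cell markers ranged from 6603 to 13164 CPM with Bam-GFP and from 3158 to 5611 CPM with GFP alone. None of these markers was at 0. The 6 muscle sheath markers summed to between 84.4 and 167 CPM with Bam-GFP and to between 119 and 344 CPM with GFP alone. The hemocyte and fat body markers stayed between 2.81 and 7.06 CPM in sum, with *NimC1* at 0 and *Lsp2* and *Fbp1* under 1 CPM in every library. The part of these markers in the synthetase values was not tested.

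The synthetase mRNAs were present in all 6 pull-down libraries of both groups. Their summed level ranged from 2593 to 3704 CPM with Bam-GFP and from 2601 to 3104 CPM with GFP alone, so that the groups overlapped. The cytosolic mRNAs contributed between 2144 and 3224 CPM to each library and the mitochondrial ones between 363 and 486 CPM. *ValRS-m* had the lowest count of any member, 9 in the second GFP library, and the other 32 had at least 10 counts in every library.

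**Figure D1:**
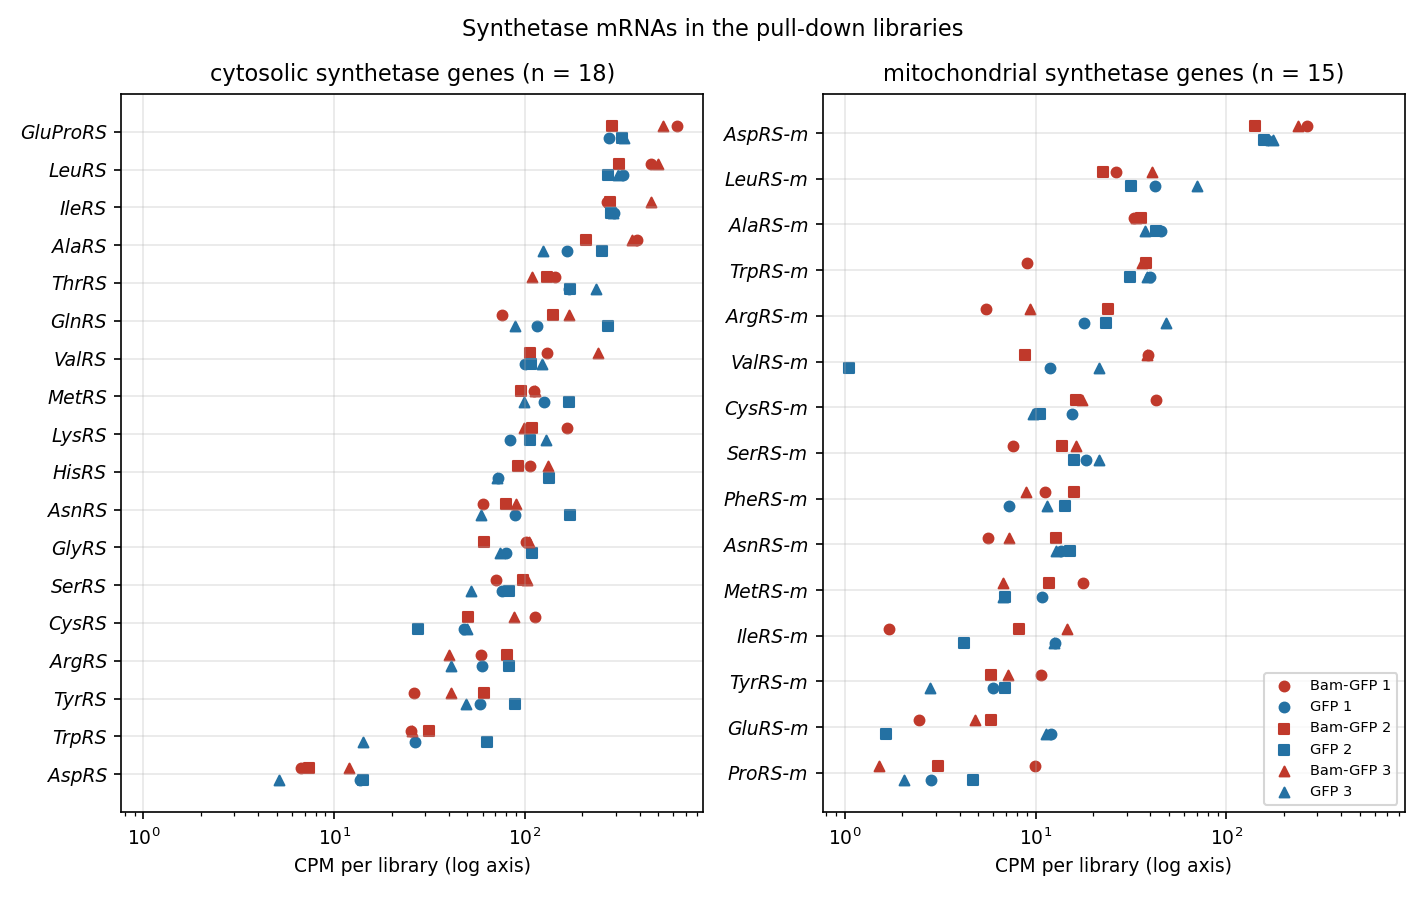
CPM of each synthetase mRNA in each pull-down library, on a log axis, with Bam-GFP libraries in red and GFP libraries in blue and the number in the library name shown by the shape. The red and blue points overlap for 29 of the 33 genes, and *ValRS-m* in the second GFP library is the lowest point.

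The level of the cytosolic enzymes' mRNAs exceeded that of their mitochondrial counterparts in most pairs. Levels of different genes were compared per kb of gene span, the distance from the start to the end of the gene with introns included, which lowers the value of genes with long introns. The median was 35.9 CPM per kb for the 18 cytosolic genes and 6.90 CPM per kb for the 15 mitochondrial ones. Pairs were matched by symbol, which gave 12 and left out *GluProRS* (63.1 CPM per kb), *GluRS-m* (3.36) and *ProRS-m* (2.37). Of these 12 pairs, 11 had the higher mean level per kb in the cytosolic gene, by a median of 6.48 times over all 12. In 9 pairs the lowest library of the cytosolic gene was above the highest library of the mitochondrial gene. The ratios per kb were widest for methionine, with means of 31.8 CPM per kb for *MetRS* and 0.925 CPM per kb for *MetRS-m*, and for isoleucine, with 75.3 and 2.80 CPM per kb for *IleRS* and *IleRS-m*. *MetRS-m* has the longest span of all members (10949 bases), which lowers its value per kb. The pairs for cysteine and tryptophan overlapped between libraries, with 22.7 and 8.62 CPM per kb for *CysRS* and *CysRS-m* and 16.6 and 11.7 CPM per kb for *TrpRS* and *TrpRS-m*.

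Aspartate was the exception. *AspRS-m* (FBgn0051739, chromosome 2L from 16827078 to 16832093 in the Release 6 assembly) had 264, 141 and 237 CPM with Bam-GFP and 163, 158 and 176 CPM with GFP alone. *AspRS* (FBgn0002069, chromosome 2R from 12877004 to 12883168) had 6.69, 7.42 and 11.9 CPM with Bam-GFP and 13.7, 14.2 and 5.14 CPM with GFP alone. The mitochondrial gene was thus higher in every library, at 37.8 against 1.60 CPM per kb. The span of *AspRS* overlaps that of *Nmda1* over 3137 bases and those of 2 antisense RNAs. The counting left out reads that fell on more than 1 gene. The part of this overlap in the low level of *AspRS* was not tested.

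**Figure D2:**
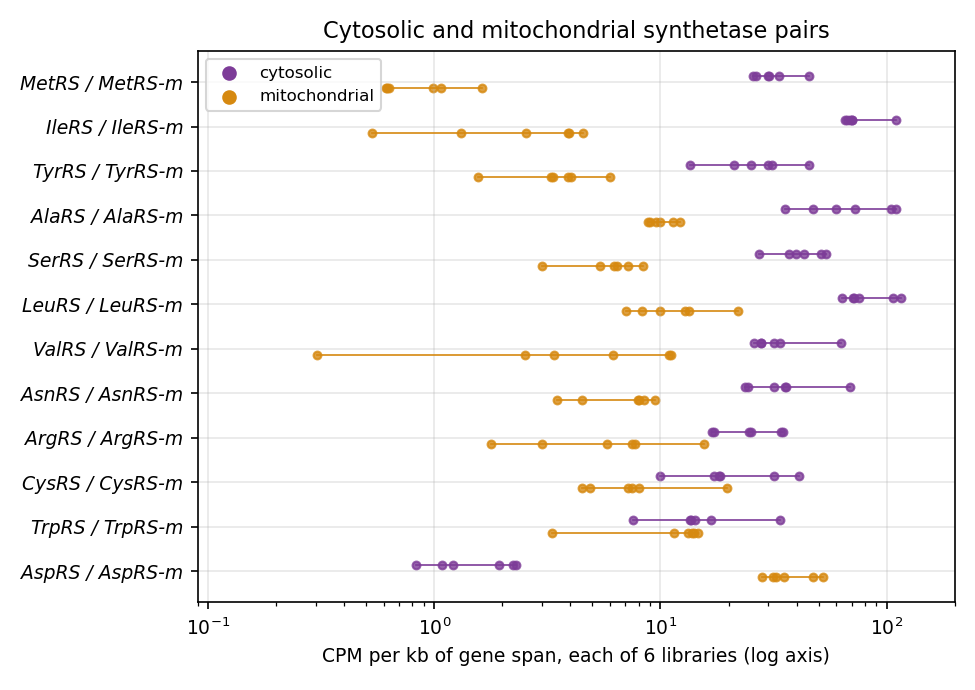
CPM per kb of gene span for the 12 cytosolic and mitochondrial synthetase pairs, on a log axis, with 1 point for each of the 6 pull-down libraries and a line from the lowest to the highest. The ranges are separate with the cytosolic gene above in 9 pairs, they overlap for cysteine and tryptophan, and the order is turned for aspartate.

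In the sorted germ cells only the authors' mean normalized count over all 6 libraries was used, so that *bam*-/- and *vas*-GFP were not compared here. The authors' table lists genes by their own comparison of both genotypes, and it held 19 of the 33 members, 14 cytosolic and 5 mitochondrial. Those not listed were not analysed in these cells. Per kb of gene span the authors' means ran from 380.0 to 6477 for the 14 listed cytosolic genes, with a median of 3775. For the 5 listed mitochondrial genes they ran from 119 to 932, with a median of 528. The highest per kb was *LysRS* and the lowest *MetRS-m*. *AspRS* was again the lowest cytosolic gene per kb, here among those listed, with an authors' mean of 2343 normalized counts in all. Over the 19 listed members, the authors' mean per kb in sorted cells and the mean CPM per kb with GFP alone had a Spearman's rho of 0.76, a description across genes that share the same span in both measures.

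None of the 33 synthetase mRNAs passed the test between Bam-GFP and GFP in either direction, with 0.05 as the threshold on the adjusted p of edgeR's quasi-likelihood test. Over all 10971 genes tested, 2.20% passed this threshold, 1.72% on the higher and 0.474% on the lower side. In numbers these were 189 higher and 52 lower genes, which became 108 and 87 when libraries were scaled by their size only. At an unadjusted p under 0.05, 3 members were higher (*ValRS-m*, *CysRS* and *AlaRS*) and 1 was lower (*ArgRS-m*) with Bam-GFP. These 4 were 12.1% of the members, beside 9.57% of all genes at the same threshold, 5.54% on the higher and 4.03% on the lower side. The members' share thus lay near that of all genes. Among the 6335 genes with at least 10 counts in each library the share was 13.7%. These include 32 of the members but not *ValRS-m*, which is counted in the 12.1%. DESeq2's Wald test, run as an alternative, called 1 of the 33 members at an adjusted p under 0.05 (*ValRS-m*, higher), beside 5.10% of the 7993 genes to which it gave an adjusted p, 3.80% on the higher side. The log2 fold changes of the members ran from −1.36 to 1.79 with a median of 0.0013, beside a median of −0.049 over all genes, and 17 were positive and 16 negative. With library size only, the median over all genes shifted to −0.26 and that of the members to −0.23, with 13 positive, so that signs near 0 are relative to the scaling.

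The absence of a call does not show that the levels were equal. The 95% interval of the log2 fold change lay within −1 and 1 for 7 members, 6 of them cytosolic, and within −2 and 2 for 24. Standard errors ranged from 0.31 to 0.87 for the cytosolic genes and from 0.32 to 1.37 for the mitochondrial genes, whose counts were lower. For the other members the interval reached past these bounds.

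**Figure D3:**
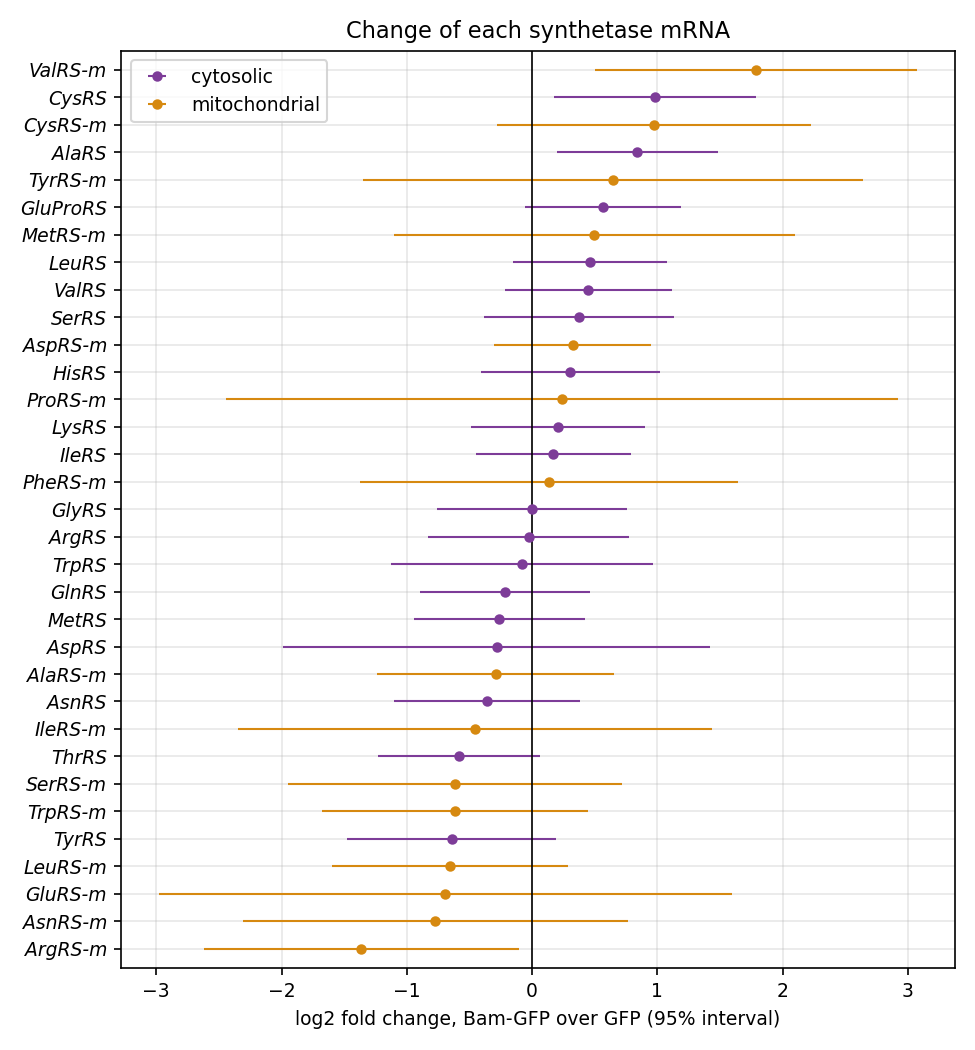
Log2 fold change of each synthetase mRNA in Bam-GFP over GFP from edgeR, with its 95% interval, sorted by value and coloured by compartment. The intervals of *ValRS-m*, *CysRS*, *AlaRS* and *ArgRS-m* exclude 0 before adjustment, and those of the mitochondrial genes are mostly wider.

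The highest fitted value was that of *ValRS-m*, the mitochondrial valine enzyme (FBgn0035942, chromosome 3L from 8961274 to 8964769). It had 38.8, 8.78 and 38.2 CPM with Bam-GFP and 11.8, 1.06 and 21.6 CPM with GFP alone. The Bam-GFP library was higher at each of the 3 numbers, but the groups overlapped, and the second library was the lowest in both. The log2 fold change was 1.79 (SE 0.66, interval 0.50 to 3.07, edgeR adjusted p = 0.159). SE is the standard error of the log2 fold change, and intervals are at 95%. The adjusted p was 0.0397 in DESeq2 and reached 0.849 without replicate 2. For the cytosolic valine enzyme, *ValRS*, the log2 fold change was 0.45 (interval −0.22 to 1.12).

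For both cysteine enzymes all Bam-GFP libraries exceeded all GFP libraries, and they were the only such members. Over all genes this held for 6.40%. *CysRS* (FBgn0027091, chromosome 2R from 16143147 to 16145906) had 114, 50.6 and 87.3 CPM with Bam-GFP and 47.7, 27.4 and 49.9 CPM with GFP alone. The margin between the groups was narrow, from 49.9 to 50.6 CPM. Its log2 fold change was 0.98 (SE 0.41, interval 0.17 to 1.79, edgeR adjusted p = 0.294), and it stayed between 0.76 and 1.10 over the 10 alternatives. *CysRS-m* (FBgn0033900, chromosome 2R from 14159096 to 14161262) had 42.6, 16.2 and 17.5 CPM with Bam-GFP and 15.5, 10.6 and 9.74 CPM with GFP alone. Here the first Bam-GFP library stood above the other two. This gave a log2 fold change of 0.97 (SE 0.64, interval −0.28 to 2.23, edgeR adjusted p = 0.768).

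*AlaRS*, the cytosolic alanine enzyme (FBgn0027094, chromosome 2L from 8378262 to 8381764), had 387, 208 and 366 CPM with Bam-GFP and 166, 254 and 125 CPM with GFP alone. The groups overlapped at the second number, where GFP was higher. The log2 fold change was 0.84 (SE 0.33, interval 0.20 to 1.48, edgeR adjusted p = 0.214), and it was 1.39 without replicate 2 and 0.47 without replicate 3. Its mitochondrial counterpart *AlaRS-m* was below GFP in every library, with 33.0, 35.8 and 33.8 CPM against 45.7, 42.7 and 37.3 CPM, and a log2 fold change of −0.29 (interval −1.24 to 0.66). Of the 12 pairs, 5 had the same sign in both compartments.

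*GluProRS* (FBgn0005674, chromosome 3R from 23952136 to 23958391) was the member with the most counts, 23264 over the 6 libraries. It had 627, 286 and 529 CPM with Bam-GFP and 277, 321 and 329.9 CPM with GFP alone. The second Bam-GFP library lay within the GFP range. In the fit its log2 fold change came to 0.57 (SE 0.32, interval −0.06 to 1.19, edgeR adjusted p = 0.631), and it was 0.26 without replicate 1 and 0.93 without replicate 2. *LeuRS*, the next in counts, was higher with Bam-GFP at all 3 numbers, with 461, 312 and 502 against 328, 274 and 307 CPM and a log2 fold change of 0.46 (interval −0.15 to 1.08). The remaining 2 of the 6 sufficiently counted genes with the highest values were mitochondrial and low. *TyrRS-m* had 10.6, 5.82 and 7.14 CPM with Bam-GFP and 5.97, 6.92 and 2.78 CPM with GFP alone, and a log2 fold change of 0.65 (SE 1.02, edgeR adjusted p = 0.895) that was 1.09 without replicate 2 and 0.29 without replicate 3. *MetRS-m* had 17.8, 11.8 and 6.72 CPM with Bam-GFP and 10.8, 6.92 and 6.74 CPM with GFP alone, and a log2 fold change of 0.50 (SE 0.82, edgeR adjusted p = 0.895). Both overlapped between the groups, and their errors exceeded their changes.

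At the other end, 5 of the 6 sufficiently counted genes with the lowest values were mitochondrial. *ArgRS-m*, the mitochondrial arginine enzyme (FBgn0037526, chromosome 3R from 7887045 to 7890150), had 5.52, 23.9 and 9.33 CPM with Bam-GFP and 18.0, 23.3 and 48.5 CPM with GFP alone. The second Bam-GFP library was slightly above the GFP library of the same number, and the other two lay below all GFP libraries. The log2 fold change was −1.36 (SE 0.64, interval −2.62 to −0.11, edgeR adjusted p = 0.419), and over the 10 alternatives it ran from −2.04 to −0.82. The span of *ArgRS-m* overlaps that of *mRpS9*, which encodes a mitochondrial ribosomal protein, over 874 bases. The cytosolic *ArgRS* had 58.8, 80.9 and 40.2 CPM with Bam-GFP and 59.9, 82.5 and 41.0 CPM with GFP alone, nearly equal at each number, with a log2 fold change of −0.027 (interval −0.83 to 0.78).

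*AsnRS-m* had 5.62, 12.9 and 7.23 CPM with Bam-GFP and 13.5, 15.2 and 12.7 CPM with GFP alone. It was lower with Bam-GFP at each number, although the second Bam-GFP library was above the lowest GFP library. The fitted change was −0.77 on the log2 scale (SE 0.78, edgeR adjusted p = 0.895). *LeuRS-m* had 26.3, 22.5 and 40.9 CPM with Bam-GFP and 42.4, 31.7 and 70.2 CPM with GFP alone. This member was also lower at each number, and its log2 fold change was −0.65 (SE 0.48, edgeR adjusted p = 0.836). The values of *GluRS-m* were the least certain of the 6, with 2.44, 5.82 and 4.79 CPM with Bam-GFP and 12.03, 1.64 and 11.3 CPM with GFP alone. Its log2 fold change of −0.69 (SE 1.17, edgeR adjusted p = 0.895) turned to 0.24 without replicate 1.

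*TrpRS-m* had 9.02, 37.7 and 36.0 CPM with Bam-GFP and 39.9, 31.3 and 38.2 CPM with GFP alone. Only the first Bam-GFP library stood apart, and the log2 fold change of −0.62 (SE 0.54, edgeR adjusted p = 0.895) turned to 0.091 without replicate 1. *TyrRS*, the only cytosolic gene among the 6 (FBgn0027080, chromosome 3L from 16417349 to 16419302), had 26.3, 61.1 and 41.2 CPM with Bam-GFP and 58.4, 88.3 and 49.1 CPM with GFP alone. It was lower at each number while the groups overlapped, and its log2 fold change was −0.64 (SE 0.43, interval −1.48 to 0.19, edgeR adjusted p = 0.775), or −0.39 without replicate 1. *TyrRS* and *GluRS-m* are neighbours, with 171 bases between their spans.

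Apart from *AlaRS-m*, *ThrRS* was the only member with all Bam-GFP libraries below all GFP libraries, which held for 7.24% of all genes. The cytosolic threonine enzyme *ThrRS* had 144, 131 and 109 CPM with Bam-GFP and 169, 173 and 237 CPM with GFP alone. The log2 fold change was −0.58 (SE 0.33, interval −1.23 to 0.06, edgeR adjusted p = 0.637), and it was −0.31 without replicate 3. The log2 fold changes of the cytosolic genes not yet given were −0.36 for *AsnRS*, −0.28 for *AspRS*, −0.26 for *MetRS*, −0.22 for *GlnRS*, −0.081 for *TrpRS*, 0.17 for *IleRS*, 0.21 for *LysRS*, 0.30 for *HisRS*, 0.38 for *SerRS* and 0.0013 for *GlyRS*, the gene at the median. Those of the mitochondrial genes were −0.62 for *SerRS-m*, −0.45 for *IleRS-m*, 0.14 for *PheRS-m*, 0.24 for *ProRS-m* and 0.32 for *AspRS-m*. All of them overlapped between the groups, and 14 of the 33 changed sign under at least 1 of the alternatives. *SerRS-m* lies wholly within the span of *Nagk* and *HisRS* within that of *Bx*, and 17 of the 33 members overlap another gene by at least 3 bases.

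Both directions occurred within each grouping of the enzymes. The median log2 fold change was 0.085 for the 18 cytosolic genes (−0.14 with library size only), of which 10 were positive, and −0.29 for the 15 mitochondrial genes, of which 7 were positive. The mitochondrial median was 0.091 without replicate 1. Of the 8 genes whose products belong to the multi-synthetase complex of animals, 4 were positive and 4 negative with a median of 0.071, and their libraries overlapped in every case. The 10 cytosolic genes outside the complex had a median of 0.15. The median was −0.054 for the 18 class I genes and 0.068 for the 14 class II genes, with *GluProRS* in neither since it holds an enzyme of each class. These medians are descriptions, and the differences between the groupings were not tested.

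For the cytosolic genes the direction differed between the numbers of the libraries. At the third number 14 of 18 were higher with Bam-GFP, with a median log2 ratio of 0.70. Fewer were higher at the first number (8 of 18, median −0.050) and at the second (4 of 18, median −0.34). The same shares over all genes are not given here, so this pattern was not shown to be particular to the synthetase genes. The second GFP library held the highest value of the 6 libraries for 9 of the 18 cytosolic genes, *GlnRS* among them with 272 CPM against 116 and 88.4 CPM in the other GFP libraries. Among the 15 mitochondrial genes the first Bam-GFP library held the highest value for 6 and the lowest for 6. That library also had the lowest TMM factor (0.807, where the others ranged from 0.937 to 1.13).

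**Figure D4:**
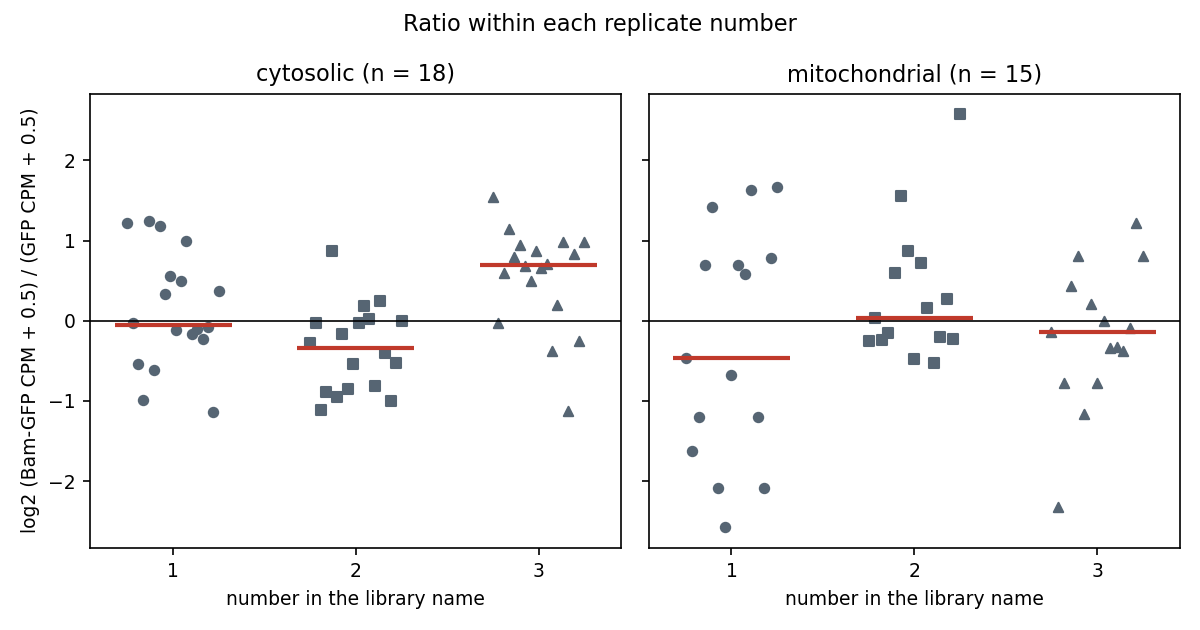
Log2 ratio of Bam-GFP over GFP for each cytosolic and mitochondrial synthetase mRNA, with 0.5 CPM added to both, by the number in the library name. Red bars are medians, which are −0.050, −0.34 and 0.70 for the cytosolic genes and −0.46, 0.033 and −0.14 for the mitochondrial genes.

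Genes with longer spans tended to have higher log2 fold changes. Over 6253 genes with a span and 10 counts or more in each library, span and log2 fold change had a Spearman's rho of 0.23, a description across genes that share the same libraries. In the same measure rho was 0.34 over the 18 cytosolic members and 0.0945 over 14 mitochondrial members. The median span was 2744 bases for 32 members and 3044 bases for all these genes. The part of length in the values of *GluProRS* and *LeuRS* was not tested.

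Genes that work beside the synthetases gave no call at an adjusted p under 0.05 in edgeR either. Of 25 genes in 6 lists, 22 were matched, had counts and were tested, with 10 positive and 12 negative log2 fold changes and a median of −0.20. At an unadjusted p under 0.05, 1 of them was higher and 2 were lower, 13.6% of those tested beside 9.57% of all genes. Among genes with at least 10 counts in each library, which include most of these partners, the share was 13.7%. The scaffolds of the multi-synthetase complex, *AIMP1*, *AIMP2* and *AIMP3*, had log2 fold changes of 0.28, 0.097 and −0.62. The subunits of the cytosolic phenylalanine enzyme had similar values, −0.74 for *alpha-PheRS* (SE 0.50) and −0.65 for *beta-PheRS* (SE 0.40). *Slimp*, a mitochondrial paralog of the serine enzyme that has lost tRNA charging, was at 0.18 (SE 0.87). Of the elongation factors that deliver charged tRNA, the cytosolic *eEF1alpha1* was at 0.012 and the mitochondrial *mEFTu1* at −0.20, and *eEF1beta*, whose product exchanges the nucleotide on the cytosolic factor, was at −0.68. *eEF1alpha2*, in the same list, had 1.17, 0.247 and 0.756 CPM with Bam-GFP and 4.45, 9.96 and 2.14 CPM with GFP alone. All its Bam-GFP libraries lay below all GFP libraries, which held for 7.24% of all genes. Its log2 fold change of −2.71 (SE 1.65, edgeR adjusted p = 0.703) rests on counts as low as 2. In this list 3 of 8 genes were positive and 5 negative.

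In the response to uncharged tRNA, the kinase Gcn2 is activated and raises the translation of the transcription factor encoded by *crc*, the fly ATF4. *Gcn2* mRNA had 156, 125 and 226 CPM with Bam-GFP and 122, 108 and 66.3 CPM with GFP alone, without overlap. Its log2 fold change was 0.77 (SE 0.35, edgeR adjusted p = 0.376). *Thor*, which encodes the translation inhibitor 4E-BP, had 25.7, 61.2 and 21.5 CPM with Bam-GFP and 55.0, 141 and 49.1 CPM with GFP alone. The groups overlapped although Bam-GFP was lower at each number, and the log2 fold change was −1.16 (SE 0.42, edgeR adjusted p = 0.145 and 0.0438 in DESeq2). *crc* itself was at −0.48 (SE 0.50) and *AsnS*, the asparagine synthetase gene, at 0.24 (SE 0.50).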

How the data were processed

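RIP-seq gave 3 Bam-GFP and 3 GFP libraries. The authors aligned the reads with STAR 2.4.0, counted them per gene with HTSeq 0.11.0 and deposited raw counts, with a fold change and p-value of their own paired test, which were not used. The kit named in the labels does not mark strand, so that counts of overlapping genes are uncertain. The table's columns bear only condition and number, so they were assigned to their group, and the number in the header served as the block. Another 5 lines name no gene and hold between 80.4% and 90.2% of the table's totals per library, mostly alignments to several places. They were left out. For RNA-seq, the authors' deposited table gives a mean normalized signal over all libraries from DESeq2 1.14.0, which was used as the authors' mean, and their comparison (fold change, standard error, statistic, p-values), which was not.

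The 10971 genes (of 17737) with 1 count or more in some library were normalized with TMM and tested by robust quasi-likelihood in edgeR, with the number as a block, as the study used a paired test, and with Benjamini-Hochberg adjustment over all tested genes. Standard errors were derived from the F statistic, and 95% intervals from the t distribution with edgeR's total degrees of freedom. No source says that libraries of 1 group came from separate flies, so p-values measure the spread between these libraries only. In each library, 3 counts equal between 0.252 and 0.371 CPM. No source says what a shared number stands for, and values at the same number are set side by side as descriptions. The fit was tested on simulated data without differences between the numbers. At an adjusted p under 0.05 in edgeR it called 2 of 65 genes with a log2 change of size 1. It called 44 of 80 at size 2 and 43 of 55 at size 3, and 2 unchanged genes. The changed genes were drawn only from those with a mean of at least 10 counts, so these shares do not cover genes with fewer.

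Full statistics are given for members with an adjusted p under 0.05 and, since there were fewer than 12, for the 6 with the highest and the 6 with the lowest log2 fold change among those with at least 10 counts in every library. *ValRS-m*, *ThrRS*, *AlaRS-m*, *LeuRS*, *AspRS*, *AspRS-m*, *ArgRS*, *GlnRS*, *eEF1alpha2*, *Gcn2* and *Thor* were chosen for description after their values were seen. The members and lists were chosen with earlier results of these data known. Names and spans are from FlyBase identifiers and RefSeq (Release 6 assembly). *LeuRS* has another identifier in each table and was matched by symbol. Alternatives were no replicate block, RLE factors, a minimum of 10 counts per library, library size only, DESeq2, edgeR's filterByExpr, each number left out in turn and, added after the data were seen, totals with reads aligned to several places. Tools were R 4.3.3, edgeR 4.0.16, DESeq2 1.42.0, Python 3.11.15, pandas 2.3.3 and matplotlib 3.10.9.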

Additional observations from a re-analysis of the deposited data

How the results depend on the processing

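No synthetase gene passed an adjusted p under 0.05 under any edgeR alternative, and DESeq2 called 1 synthetase gene (higher) and 1 partner gene. At an unadjusted p under 0.05, the 3 higher members became 1 with library size only and between 1 and 2 with a number left out. The 1 lower member became 2 with library size only and between 0 and 2 with a number left out. It became 0 when the lines that name no gene were added to the totals and no TMM factors were used. Leaving out a number moved the median of all members between −0.070 and 0.27, that of the cytosolic genes between −0.048 and 0.35 and that of the mitochondrial genes between −0.31 and 0.091. Library size only lowered the median of all genes from −0.049 to −0.26 and that of the members from 0.0013 to −0.23, with 13 positive members. With a number left out, *GluRS-m* ran from −1.76 to 0.24 and *TrpRS-m* from −1.11 to 0.091, positive without replicate 1 only, and the cause was not tested. Over all genes, 189 were higher and 52 lower. These counts were 108 and 87 with library size only, 115 and 20 with edgeR's filterByExpr, 100 and 13 with a minimum of 10 counts per library, and 304 and 104 in DESeq2. The larger totals without TMM factors gave 16 lower genes, and a number left out gave from 55 to 121 higher and from 18 to 44 lower. Over 7513 genes, the deviations of libraries with the same number had correlations of −0.119, 0.118 and −0.0062, and 2 of the 6 libraries were closest to the library of their own number, so the check did not show that the numbers pair the samples and does not exclude it. Without the replicate block, the median of the members was 0.016, no member was called as with the block, and 227 genes were higher and 73 lower over all genes.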
